A study of Mus musculus with 6 samples.

Results

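The Slc25 genes encode the mitochondrial carrier family, the transport proteins of the inner mitochondrial membrane. Members were all genes with a symbol of the form Slc25a followed by a number and a probe set that the platform annotation pairs with that symbol alone. This gave 46 of the 22180 genes measured, with 1 probe set each. The arrays hold RNA from primary hepatocytes of adult male wild type C57Bl/6 mice, kept in serum-free medium and treated for 4 h with 2 µM GW4064 (3 arrays) or with its solvent DMSO (3 arrays). GW4064 is a drug-like compound that activates FXR, the nuclear receptor for bile acids. Each treatment group carries replicate numbers 1 to 3, and the series names 3 independent hepatocyte preparations. No label says whether a number marks a preparation or whether a preparation came from 1 animal or from several. P-values set a change against the spread between these samples.

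Mitochondrial carriers move nucleotides, phosphate, amino acids, carboxylates and cofactors across a membrane that is otherwise closed to them. They share a fold built from repeated pairs of membrane-spanning helices. In hepatocytes they link the cytosol and the matrix for urea synthesis, gluconeogenesis, fatty acid oxidation and the export of citrate for lipid synthesis. Slc25a47 is a member expressed mainly in liver, first described as a carrier lowered in hepatocellular carcinoma. Slc25a17 is an exception in location, since its product lies in the peroxisomal membrane.

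The values are log2 intensities after RMA normalization and ran from 0.94 to 13.07. Array medians lay within 0.05 of each other. Intensities of different probe sets do not rank their genes by amount of RNA. Bright, dim and the shares of all genes below describe the signal on this array only. Of 8 hepatocyte markers 7, among them Alb, Apoa1 and Ttr, lay in the brightest 25% of all genes. Of the markers of other liver cells, 4 of 6 for macrophages, 4 of 6 for stellate cells, 3 of 3 measured for blood cells, 1 of 5 for endothelial cells and 1 of 4 measured for cholangiocytes lay below the median level of 4.20. None is at 0 on this scale, and Cd68 (macrophages, 9.39 ± 0.77 in DMSO), Acta2 (stellate cells) and Sox9 (cholangiocytes) lay in the brightest 25%. The summed hepatocyte markers ranged from 14.08 to 14.16 on the log2 scale in DMSO and from 14.02 to 14.07 with GW4064, and the summed cholangiocyte markers from 7.63 to 7.99 and from 7.94 to 8.42. Single markers also differed between the groups without passing over all genes. The hepatocyte factor gene Hnf4a went from 8.90 ± 0.11 to 9.45 ± 0.18, a log2 change of 0.55 (SE 0.12, limma adjusted p = 0.393, 0.151 with the replicate number as a block) with groups that did not overlap. The other hepatocyte markers had log2 changes of -0.25 (Serpina1a), -0.21 (Tat), -0.18 (Cps1), -0.09 (Apoa1), -0.09 (Ttr), -0.03 (Alb) and 0.01 (Asgr1). Of these, Serpina1a, Tat, Cps1 and Ttr were lower in all 3 same-numbered pairs. Sox9 had a log2 change of 0.45 (SE 0.17, limma adjusted p = 0.858, 0.204 with the block) and was higher in all 3 same-numbered pairs. The part of these markers in the changes below was not tested. In such bulk samples fewer cells of a type and less RNA per cell cannot be told apart. The FXR targets Abcb11 and Nr0b2 rose by 3.08 and 2.37 on the log2 scale. Nr1h4, the gene of FXR itself, went the other way with a log2 change of -0.72 and groups that did not overlap. It did not pass (SE 0.09, limma adjusted p = 0.0535, 0.0618 with the block).

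Across the family, Slc25a47 rose with GW4064 in the fit without the replicate block, and no other member passed the test. With the replicate number as a block, 0 of 46 passed (Slc25a47 limma adjusted p = 0.0618). In limma at an adjusted p under 0.05, 1 of 46 members was raised and 0 lowered, where 0.0496% of all genes were raised and 0% lowered. Before adjustment, limma gave a p under 0.05 to 2 members that were higher and to 1 that was lower, against 2.6% and 3.06% of all genes. The median log2 change of the 46 members was -0.009 and that of all genes was -0.016. Of the members 20 were higher and 26 lower, a split that turned to 24 higher and 22 lower with quantile normalization or with array medians centred, when the members' median was 0.009 and 0.007. A change of at least 0.2 in either direction was measured in 7 members (15.2%), against 13.6% of all genes. For 43 members the 95% interval of the change lay within 1.5-fold in either direction (93.5%, against 92.2% of all genes), and for 45 members within 2-fold. The members outside the narrower bounds were Slc25a47, Slc25a17 and Slc25a33.

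**Figure D1:**
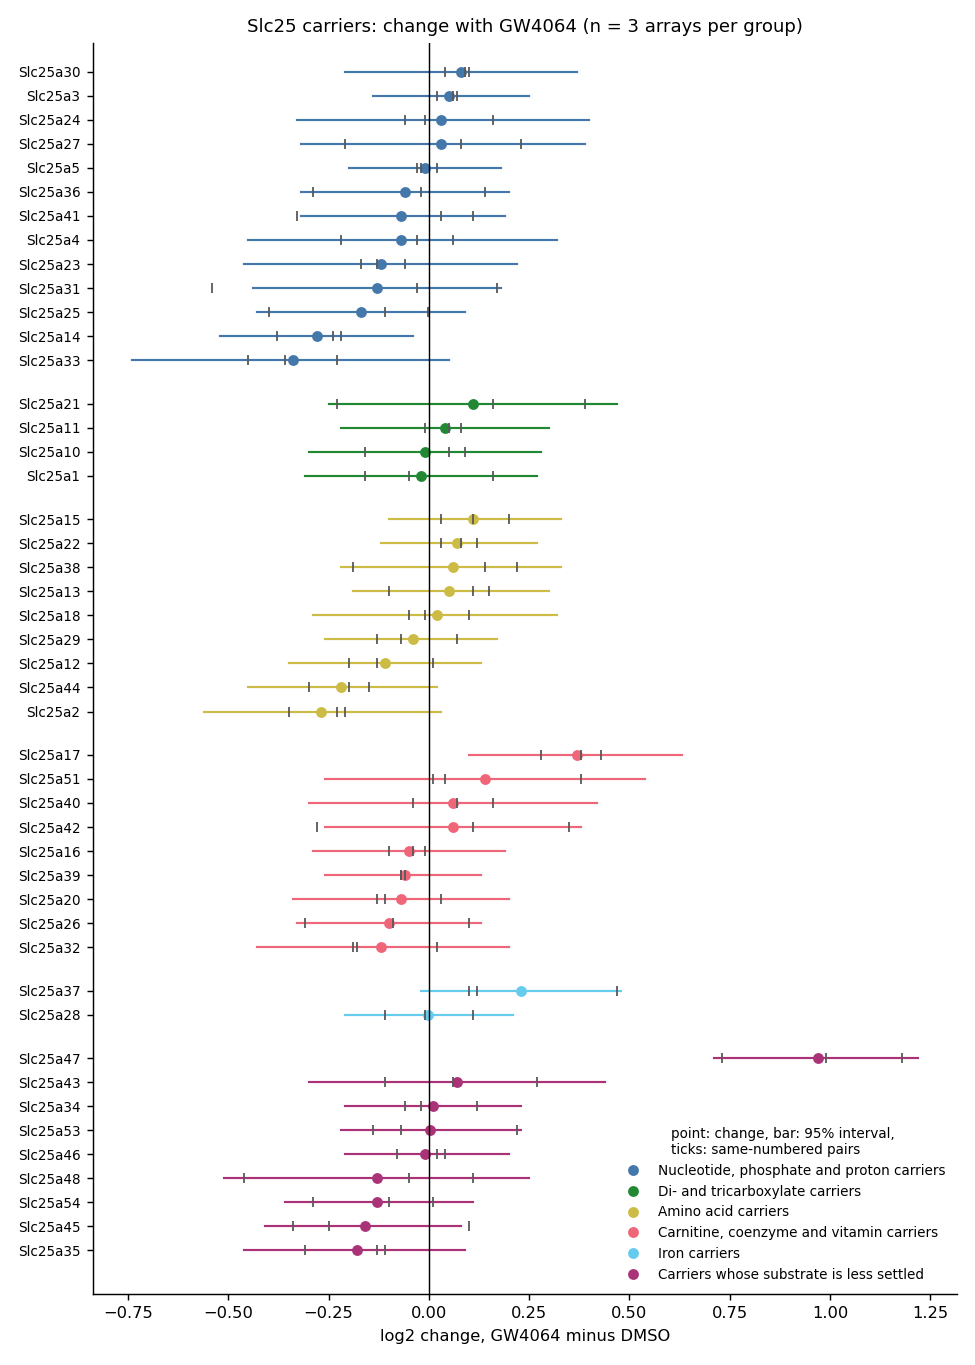
Log2 change (GW4064 minus DMSO, x axis) of the 46 Slc25 carriers, grouped by what they transport, with points for the change, bars for the 95% interval from limma and ticks for the 3 same-numbered pairs. Slc25a47 stands at 0.97, and the other 45 members lie between -0.34 and 0.37.

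**Figure D2:**
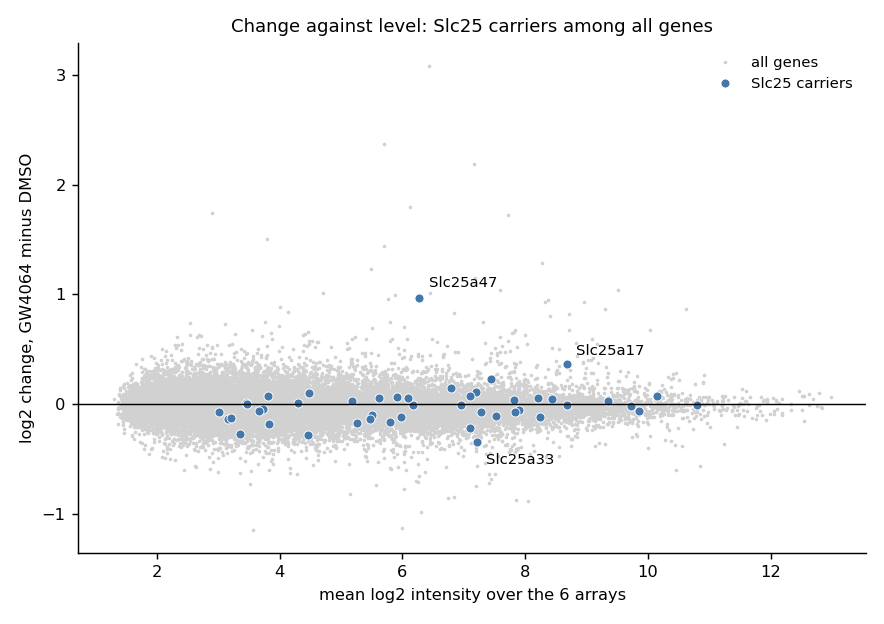
Log2 change (y axis) against mean log2 intensity over the 6 arrays (x axis) for all 22180 genes in grey and the 46 Slc25 carriers in blue. Apart from Slc25a47 the carriers lie within the cloud of other genes of like brightness.

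The Slc25a47 probe set (17278628) read 5.69, 5.99 and 5.71 in DMSO replicates 1, 2 and 3, and 6.87, 6.72 and 6.69 with GW4064. The lowest treated array was above the highest control array, and the treated arrays were closer together than the controls. The mean went from 5.79 ± 0.17 to 6.76 ± 0.09 (SD, n = 3 each), a log2 change of 0.97 (SE 0.11, limma adjusted p = 0.0343) with a 95% interval of 0.71 to 1.22. That is a 1.95-fold rise, with an interval of 1.64 to 2.33. In same-numbered pairs 1, 2 and 3 the change was 1.18, 0.73 and 0.99. Pair 2, whose control array was the highest of the 3, had the smallest rise. By size the rise ranked 17th of all genes, and by p it ranked 8th. With the replicate number as a block the change and its SE were the same, and the limma adjusted p was 0.0618. The call was also lost when all probe sets of the array, named or not, were tested together (limma adjusted p = 0.250), when any single array other than DMSO replicate 2 was left out (0.104 to 0.230), and when any pair was left out (0.116 to 0.795). The change itself stayed between 0.86 and 1.08 in all of those settings.

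The promoters of the 3 members with the largest changes in either direction are shown, since FXR acts by binding DNA. Sites within the genes or further away were not searched. They give the 250 bases before a start site in RefSeq (build GRCm38.p6), read 5′ to 3′ along the gene. Capitals mark each match on either strand to AGGTCA or GGGTCA, the core hexamers of nuclear receptor sites. The inverted repeat GGTCANTGACC, which can overlap a hexamer match, was searched as well.
Slc25a47, chr12:108850879-108851128, plus strand: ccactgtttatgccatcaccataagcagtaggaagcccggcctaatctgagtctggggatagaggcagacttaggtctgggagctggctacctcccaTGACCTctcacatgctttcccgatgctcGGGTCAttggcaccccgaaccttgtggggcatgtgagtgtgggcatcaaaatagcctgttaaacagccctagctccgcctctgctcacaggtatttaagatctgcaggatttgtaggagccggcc
Slc25a17, chr15:81360766-81361015, minus strand: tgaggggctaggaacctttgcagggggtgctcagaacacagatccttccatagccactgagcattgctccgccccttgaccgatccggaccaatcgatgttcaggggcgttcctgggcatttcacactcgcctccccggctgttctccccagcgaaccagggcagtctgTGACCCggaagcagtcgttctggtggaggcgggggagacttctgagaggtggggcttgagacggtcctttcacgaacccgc
Slc25a33, chr4:149774268-149774517, minus strand: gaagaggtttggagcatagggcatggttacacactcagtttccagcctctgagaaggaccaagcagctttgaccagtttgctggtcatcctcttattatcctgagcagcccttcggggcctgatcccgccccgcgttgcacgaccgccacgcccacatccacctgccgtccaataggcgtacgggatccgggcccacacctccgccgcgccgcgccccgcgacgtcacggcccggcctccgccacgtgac

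The stretch of Slc25a47, the raised gene, held a match to AGGTCA on the minus strand (TGACCT) at 153 to 148 bases before the start and GGGTCA at 125 to 120 bases before it. Slc25a17 held GGGTCA on the minus strand at 81 to 76 bases before the start, and Slc25a33 held no match to either hexamer. Among 32851 promoter stretches of this length, 14% held AGGTCA and 11.6% GGGTCA, so a match to either is common. The share of stretches that held both, as that of Slc25a47 did, was not counted. Promoters were found for 36 of the 46 members (46 stretches), of which 4 stretches (8.7%) held AGGTCA and 8 stretches (17.4%), in 7 genes, held GGGTCA. The full inverted repeat was in 0.0335% of all stretches and in 0 of those of the family. It is so rare that its absence from 46 stretches says nothing about the family. A match is a string of letters and no measured binding site.

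Genes next to Slc25a47 in the RefSeq gene order were not called. Slc25a29, a carrier of basic amino acids and the gene of the same family closest to it, lay at -0.04 (log2 change, SE 0.10, 95% interval -0.26 to 0.17). The microRNA gene Mir345, between both carriers, had 0.15 (SE 0.17), and Wars, a tRNA synthetase gene on the other side, -0.10 (SE 0.18). All 3 had a limma adjusted p of 0.998, and Slc25a29 was dim on this array (3.75 ± 0.02 in DMSO). In the family's other pairs with at most 1 gene between them no member was called. Slc25a41 and Slc25a23 had changes of -0.07 and -0.12, Slc25a54 and Slc25a24 -0.13 and 0.03, and Slc25a43 and Slc25a5 0.07 and -0.01, the last of which turned its sign under both rescalings.

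Besides Slc25a47, the groups did not overlap in 5 members. With all GW4064 arrays above all DMSO arrays were Slc25a17 and Slc25a37, which with Slc25a47 makes 3 of 46 (6.52%, against 4.58% of all genes). With all of them below were Slc25a14, Slc25a44 and Slc25a39 (6.52%, against 6.19% of all genes). These shares are near those of all genes, but the members are brighter (median level 6.23, against 4.20). Above the median level, 3 of 36 members were apart in each direction (8.33%). Of all genes above that level 3.83% were apart and higher, and 7.28% apart and lower.

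Slc25a17, the peroxisomal carrier of coenzyme A and related nucleotides, had the largest change after Slc25a47. It read 8.52, 8.58 and 8.37 in DMSO and 8.90, 9.02 and 8.66 with GW4064. The groups were apart, and replicate 3 was the lowest in each. The log2 change was 0.37 (SE 0.12, 95% interval 0.10 to 0.63), with pair differences of 0.38, 0.43 and 0.28. It did not pass over all genes (limma adjusted p = 0.763, unadjusted p = 0.0125), nor with the replicate block (0.288). Slc25a37, the iron importer mitoferrin-1, read 7.42, 7.45 and 7.12 in DMSO and 7.53, 7.55 and 7.59 with GW4064. The treated arrays were nearly alike, and the control of replicate 3 was low. The log2 change was 0.23 (SE 0.11, limma adjusted p = 0.922), or 0.13 without that control, and the pair differences were 0.12, 0.10 and 0.47.

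Slc25a33, an importer of pyrimidine nucleotides, had the most negative change of the family. It read 7.25, 7.17 and 7.75 in DMSO and 7.02, 6.82 and 7.30 with GW4064. The groups overlapped because replicate 3 was high in both, and within each number the treated array was the lower. Its log2 change was -0.34 (SE 0.17, 95% interval -0.74 to 0.05), with pair differences of -0.23, -0.36 and -0.45. With the replicate block the SE was 0.08 and the unadjusted p went from 0.0800 to 0.00569, but the limma adjusted p of 0.340 did not pass. Slc25a36, the other pyrimidine nucleotide carrier, was dim (3.70 ± 0.20 in DMSO) with a change of -0.06 (SE 0.11).

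Slc25a14, an uncoupling-protein-like carrier, read 4.58, 4.52 and 4.69 in DMSO and 4.20, 4.28 and 4.47 with GW4064, with all treated arrays below all controls. Its change was -0.28 (SE 0.11, limma adjusted p = 0.857, unadjusted p = 0.0272). Slc25a44, the carrier of branched-chain amino acids, read 7.20, 7.17 and 7.29 against 7.00, 6.86 and 7.14, a change of -0.22 (SE 0.10, limma adjusted p = 0.918, 0.511 with the block). Slc25a2, an ornithine carrier, read 3.60, 3.54 and 3.33 against 3.37, 3.32 and 2.98. It was lower in every pair, and the groups overlapped. Its change was -0.27 (SE 0.13, limma adjusted p = 0.926, 0.427 with the block) at a level that is dim on this array. Slc25a39, which carries glutathione, had an SD of 0.02 in each group. It read 9.90, 9.86 and 9.88 against 9.84, 9.80 and 9.81, a change of -0.06 (SE 0.09, limma adjusted p = 0.998).

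**Figure D3:**
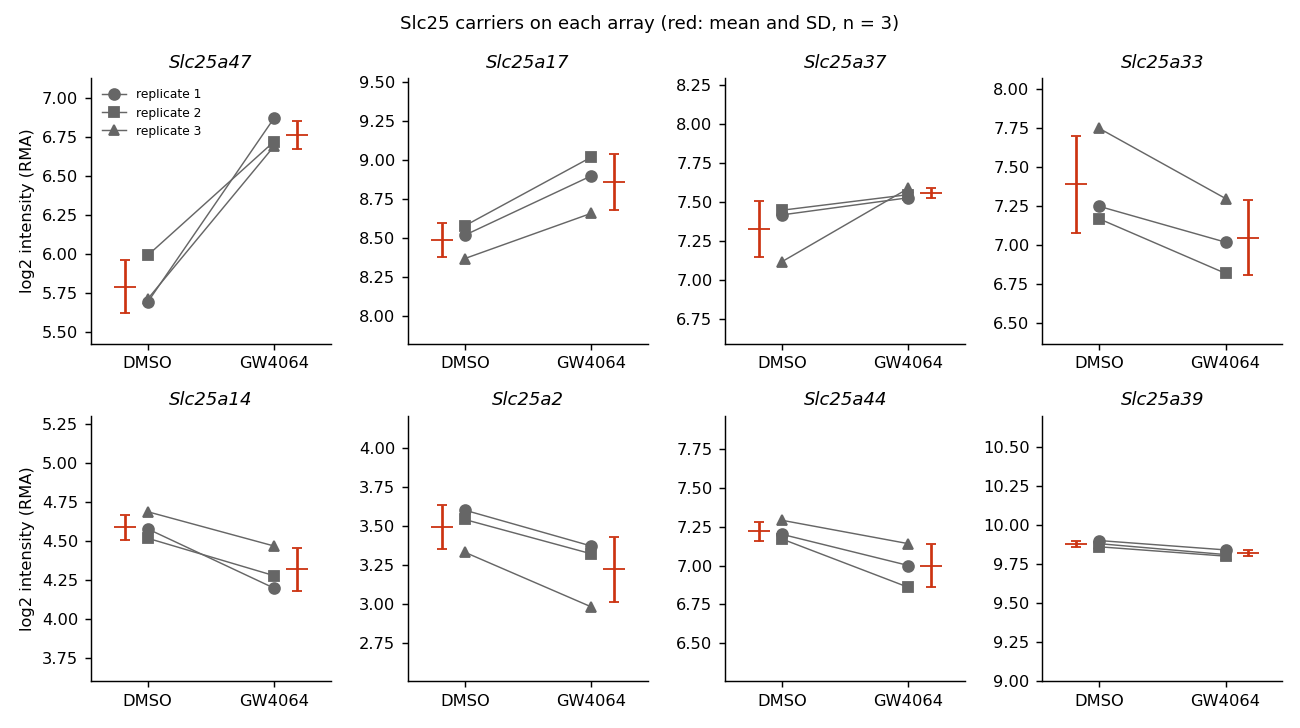
Log2 intensity (y axis, each panel spanning the same range) of 8 Slc25 carriers on the DMSO and GW4064 arrays, with lines joining same-numbered arrays and red bars for the mean and SD (n = 3). Slc25a47 is higher on every GW4064 array, and the shifts of the other 7 are at most 0.37 in size.

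With the replicate block, limma gave an unadjusted p under 0.05 to 2 members that were higher and to 4 that were lower (4.35% and 8.7%, against 4.01% and 5.12% of all genes), and called 0 after adjustment, where 0.0721% of all genes were raised and 0.00902% lowered. The 6 members were Slc25a47, Slc25a17, Slc25a33, Slc25a14, Slc25a2 and Slc25a44. All 3 pairs were higher in 8 members (17.4%, against 12.6% of all genes) and lower in 9 (19.6%, against 18.6%). Among those above the median level, 22.2% of members were higher in all pairs (against 12.3% of genes) and 19.4% lower (against 24.1%).

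The carriers of nucleotides, phosphate and protons (13 members) included none that passed the test, with 4 higher and 9 lower and a median log2 change of -0.067. Slc25a5 (ANT2), an ADP/ATP translocase that exports ATP from the matrix, was bright, at 10.81 ± 0.01 in DMSO and 10.80 ± 0.02 with GW4064, with a 95% interval of the change of -0.20 to 0.18. Slc25a4 (ANT1), its paralogue, went from 7.88 ± 0.28 to 7.81 ± 0.26. The phosphate carrier Slc25a3, which supplies ATP synthase, had a change of 0.05 (SE 0.09). The calcium-regulated ATP-Mg/phosphate carriers Slc25a23, Slc25a24 and Slc25a25 had changes of -0.12, 0.03 and -0.17, and the related Slc25a41 had -0.07. The uncoupling-protein-like genes Slc25a27 and Slc25a30 had 0.03 and 0.08. Slc25a31, the translocase known from germ cells, was dim (3.22 ± 0.25 in DMSO), with pair differences of -0.54, 0.17 and -0.03.

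None of the 4 carboxylate carriers passed the test, with 2 higher and 2 lower and changes between -0.02 and 0.11. Slc25a1, which exports citrate for fatty acid synthesis, lay at 9.73 ± 0.24 in DMSO and 9.71 ± 0.07 with GW4064. The 95% interval of its change was -0.31 to 0.27. The dicarboxylate carrier Slc25a10 had -0.01 (SE 0.13), a sign that turned under both rescalings, and the oxoglutarate-malate carrier Slc25a11 had 0.04 (SE 0.12). Slc25a21, the carrier of longer oxodicarboxylates, went from 4.43 ± 0.35 to 4.53 ± 0.04, and its pair differences of -0.23, 0.16 and 0.39 had no common sign.

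Of the 9 amino acid carriers none passed the test, with 5 higher and 4 lower. The aspartate-glutamate carriers of the malate-aspartate shuttle had opposite small changes, with 0.05 (SE 0.11) for Slc25a13 (citrin, the liver form) and -0.11 (SE 0.11) for Slc25a12 (aralar). Slc25a15, the ornithine carrier that serves the urea cycle, went from 7.15 ± 0.07 to 7.26 ± 0.09, a change of 0.11 (SE 0.09) that was positive in all 3 pairs. The glutamate carriers Slc25a22 and Slc25a18 had 0.07 and 0.02, and the glycine carrier Slc25a38 had 0.06. Slc25a44 and Slc25a2, given above, had the most negative changes of the group.

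Among 9 carriers of carnitine, coenzymes and vitamins none passed the test, and 4 were higher and 5 lower. Slc25a20, which brings acylcarnitines into the matrix for fatty acid oxidation, went from 7.31 ± 0.11 to 7.24 ± 0.20. The coenzyme A carriers Slc25a16 and Slc25a42 had changes of -0.05 and 0.06. Slc25a51, which imports NAD+, read 6.31, 7.00 and 6.85 in DMSO and 6.68, 7.04 and 6.86 with GW4064, with DMSO replicate 1 the lowest. Its change was 0.14 (SE 0.18), or -0.06 without that array. The S-adenosylmethionine carrier Slc25a26 had -0.10, the folate carrier Slc25a32 -0.12, and the glutathione carrier Slc25a40 0.06. Of the 2 iron carriers, Slc25a28 (mitoferrin-2) had a change of -0.0027 (SE 0.09) and turned its sign under both rescalings.

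Besides Slc25a47, the group with less settled substrates holds 8 members, none of which passed the test. Slc25a46, an outer membrane protein of mitochondrial shape and lipid transfer, was 8.68 ± 0.05 in DMSO and 8.68 ± 0.07 with GW4064. The remaining 7 had changes between -0.18 (Slc25a35) and 0.07 (Slc25a43). Slc25a45 and Slc25a48 had -0.16 (SE 0.11) and -0.13 (SE 0.17). Slc25a35, Slc25a43, Slc25a53 and Slc25a54 were dim, with DMSO means between 3.28 and 3.92, and Slc25a34 lay near the median level of all genes (4.29 in DMSO).

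Some members also varied between replicate numbers. The range of the 3 replicate-number means, each over both treatments, had a median of 0.21 over the members and 0.19 over all genes. The widest ranges were 0.53 for Slc25a33, 0.52 for Slc25a51, 0.46 for Slc25a4 and 0.46 for Slc25a24. Replicate number 3 was low for Slc25a4 (7.54, against 7.99 in number 1) and for Slc25a24 (9.06, against 9.46 and 9.52), and high for Slc25a33 (7.53, against 7.14 and 6.99). In Slc25a47 the range was 0.15.

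Other genes of carrier biology were read the same way. In 9 lists of 67 measured genes none passed the test in limma over all genes, with 25 higher and 42 lower and a median log2 change of -0.017. Before adjustment limma gave a p under 0.05 to 1 that was higher and 2 that were lower (1.49% and 2.99%, against 2.6% and 3.06% of all genes). With the replicate block these were 1 higher and 7 lower (1.49% and 10.4%, against 4.01% and 5.12% of all genes), with 0 called after adjustment. Of 4 measured family members under other symbols none was called. Ucp1 and Mtch1 lay near 0 (-0.00079 and -0.01) and each turned its sign under a rescaling, while Ucp3, an uncoupling protein gene, had -0.24 (SE 0.12) and Mtch2, an outer membrane insertase, -0.05 (SE 0.10). Among 13 genes that import carriers into the inner membrane, 6 were higher and 7 lower, and Tomm20, an import receptor, had 0.16 (SE 0.11). ATP synthase genes (15 measured, 5 higher, 10 lower) had a median of -0.017, with Atp5g1 at -0.27 (SE 0.15). The outer membrane channel Vdac1 had 0.10 (SE 0.11), the pyruvate carrier subunit Mpc1 -0.05 (SE 0.11) and the shuttle enzyme Got1 -0.13 (SE 0.14).

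Of 8 measured enzymes around carnitine and citrate, 5 were higher and 3 lower and none passed the test. Crot, the peroxisomal carnitine octanoyltransferase, went from 9.53 ± 0.13 to 9.82 ± 0.13, a change of 0.29 (SE 0.11, limma unadjusted p = 0.0270, adjusted p = 0.857), and the groups did not overlap. Crat, the carnitine acetyltransferase, went from 7.39 ± 0.06 to 7.19 ± 0.07 (change -0.20, SE 0.09, limma adjusted p = 0.891), and was lower on every treated array. In the urea cycle list (8 measured, 2 higher, 6 lower), Glud1, which releases ammonia from glutamate, had -0.21 (SE 0.12) and the argininosuccinate lyase gene Asl 0.14 (SE 0.09). Among 9 regulators of mitochondrial biogenesis, 4 were higher and 5 lower and none passed the test, with changes between -0.52 and 0.16 and a median of -0.070. The coactivator gene Ppargc1a had -0.52 (SE 0.22, limma adjusted p = 0.863, 0.247 with the block). Ppara had -0.48 (SE 0.12, limma adjusted p = 0.601, 0.340 with the block), with groups that did not overlap. All 3 pairs were lower in 5 of the 9 regulators (55.6%, against 18.6% of all genes) and higher in 0 (against 12.6%). Only 1 of the 9 lay below the median level, and of all genes above that level 24.1% were lower and 12.3% higher in all pairs. The list was chosen with earlier results of these data known, so its share is no test of a common fall.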

How the data were processed

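Per the labels' protocols, total RNA of 6 hepatocyte cultures was biotin-labelled and hybridised to 6 Affymetrix MoGene-2_0-st arrays of 1 colour. The authors deposited log2 intensities per probe set, for which the submitters' processing notes name RMA and Partek with no version. The base of the logarithm is not given, and the range of values is that of log2 RMA output. Of 41345 probe sets, 23521 have 1 symbol in the platform annotation, 1814 several and 16010 none. The brightest probe set over all 6 arrays stood for a gene with several, which left 22180 genes. All 46 members were found in the RefSeq gene table.

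GW4064 and DMSO were compared with limma 3.58.1 in R 4.3.3 (lmFit and eBayes) over all genes, unblocked and unfiltered, with Benjamini-Hochberg adjustment over the 22180 genes. A fold is the log2 change taken off the log scale. With 3 arrays a group, exact permutation tests of single genes cannot pass a threshold of 0.05. Same-numbered arrays deviated together from the group means (correlations of 0.260, 0.341 and 0.450, above 0.1 in each pair), so the blocked fit is given where it changes a call. Both fits were first tried on simulated data. The simulation held no shared deviation of same-numbered arrays, so it could not compare the fits in that respect.

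Members were named by rule: full values for those with an unadjusted p under 0.05 in either fit or with groups that do not overlap, and at least 2 per transport group by smallest p. Members, pathway lists and cell markers were chosen with earlier results of these data known. Alternatives were the replicate block, quantile normalization, median centring, filters at the 25th percentile and the median of level, the mean of a gene's probe sets, all probe sets, a variance trend with robust estimation, and leaving out each array or pair.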

Additional observations from a re-analysis of the deposited data

How the results depend on the processing

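Slc25a47 was higher with GW4064 in all 17 alternatives, and its call was kept in 7 and lost in 10. It was lost with the replicate block (0 members raised, change 0.97, adjusted p = 0.0618) and with all probe sets tested (0 raised, change 0.97, adjusted p = 0.250). Without single arrays or pairs the change was 0.86 to 1.08 and 0 to 1 members were raised, only leaving out DMSO replicate 2 keeping the call. No member was lowered in any alternative (limma, with 1 lower at an unadjusted p under 0.05 without the block and 4 with it). The members' median change was -0.051 to 0.006 with arrays or pairs left out. The filter at the median level gave no value for 10 dim members. With quantile normalization Slc25a5, Slc25a10, Slc25a28 and Slc25a46 turned to 0.01, 0.03, 0.04 and 0.01, and with array medians centred each of these 4 turned to 0.01. Of the 46 members 18 kept their sign in every alternative that gave them a value, and 28 turned it when arrays or pairs were left out. The log2 changes ran for Slc25a1 from -0.15 to 0.09, Slc25a4 from -0.23 to 0.08, Slc25a5 from -0.02 to 0.0008 and Slc25a10 from -0.12 to 0.07. They ran for Slc25a11 from -0.03 to 0.14, Slc25a13 from -0.03 to 0.13, Slc25a16 from -0.10 to 0.03 and Slc25a18 from -0.09 to 0.12. The log2 changes ran for Slc25a21 from -0.05 to 0.29, Slc25a23 from -0.24 to 0.01, Slc25a24 from -0.14 to 0.14 and Slc25a26 from -0.20 to 0.01. They ran for Slc25a27 from -0.10 to 0.17, Slc25a28 from -0.06 to 0.05, Slc25a29 from -0.11 to 0.01 and Slc25a30 from -0.02 to 0.17. The log2 changes ran for Slc25a31 from -0.28 to 0.07, Slc25a34 from -0.05 to 0.06, Slc25a36 from -0.15 to 0.06 and Slc25a38 from -0.03 to 0.18. They ran for Slc25a40 from -0.05 to 0.23, Slc25a41 from -0.15 to 0.07, Slc25a42 from -0.09 to 0.23 and Slc25a43 from -0.07 to 0.21. The log2 changes ran for Slc25a46 from -0.05 to 0.03, Slc25a48 from -0.28 to 0.03, Slc25a51 from -0.06 to 0.28 and Slc25a53 from -0.11 to 0.08. The cause was not tested. The number of arrays, 3 per group, limits the precision of every change.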
